A study of Mus musculus with 10 samples.

Results

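The genes described here are the mouse zinc finger genes with symbols from Zfp500 to Zfp999. They were chosen by symbol, from the probe sets that carry a single gene symbol, and a gene was kept when its highest value on the 10 arrays was above 3.81, the median log2 value of all probe sets. Of 165 genes in this symbol range with such a probe set, 139 were kept, out of 13034 kept genes of 18193 in all. Just inside the threshold, the highest values were 3.83 for Zfp759, 3.94 for Zfp974 and 4.03 for Zfp882. Just outside it, they were 3.81 for Zfp957, 3.80 for Zfp750 and 3.77 for Zfp786.

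The series addressed what the Mediator subunit Med23 does in mesenchymal cells that can turn to smooth muscle or fat. Its MEFs, fibroblasts of embryos taken on day 9.5, had become immortal in culture on their own, and were Med23 knockout (Med23KO, below KO) or wild type (WT). Each genotype was sampled at 0 min (no serum) and after 30 and 90 min of serum. The 10T1/2 cells, a line from mouse embryos, received MAL overexpression with Med23 knockdown, MAL overexpression alone, Med23 knockdown alone, or no treatment (control). MAL is a cofactor of SRF, the transcription factor that serum activates on muscle and growth-response genes. With a single array for every condition there was no replication, the number of arrays limits the precision, and pairs of arrays that differ in 1 factor took the place of replicates. The labels do not say whether the arrays came from separate cultures, and nothing here separates the genotype from other differences between the KO and WT lines.

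Most genes with a Zfp symbol and a number encode proteins with C2H2 fingers, short zinc-bound folds that read DNA in tandem. Many also carry a KRAB domain, which recruits the corepressor TRIM28 and, through it, the histone methyltransferase SETDB1 and heterochromatin proteins. KRAB zinc finger genes have multiplied by local duplication, lie in clusters, and are best known for silencing retroelements. Other members of the symbol range have no KRAB domain and act in fat cell commitment, in chromatin complexes or on ribosomes.

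The arrays carried the labelled differences. Med23 had log2 levels of 3.30, 3.30 and 2.91 at 0, 30 and 90 min in KO MEFs, against 7.14, 7.39 and 6.90 in WT MEFs. In 10T1/2 cells it had 3.94 with both treatments and 4.24 with knockdown, against 5.67 with MAL and 5.45 in the control. Fos, an immediate-early serum response gene, had 6.63, 13.03 and 9.02 at 0, 30 and 90 min in KO MEFs, against 5.99, 12.24 and 7.16 in WT MEFs. Of 11 fibroblast markers, 9 were above the array median on every MEF array of each genotype and 10 on every 10T1/2 array, with Fap below it throughout and Thy1 below it in the MEFs. Their summed log2 level was 110.31 to 114.75 in KO MEFs, against 111.48 to 115.67 in WT MEFs. Single markers went both ways in KO against WT, with 1 of 9 tested higher (Col1a2, 3.89) and 5 lower (S100a4 with -1.94, Pdgfrb with -1.39, Fn1, Pdgfra and Col6a1). At 90 min against 0 min Pdgfra fell by 2.43 and Pdgfrb by 1.03, alongside the members described below. Of 5 pluripotency markers, all were below the array medians in KO MEFs, and 4 were below them on all WT arrays as well. Sox2 was the exception. It had 2.61, 2.99 and 2.87 in KO MEFs, against 8.33, 7.61 and 9.11 in WT MEFs, so the lines differed in more than Med23. The part of these differences in the results below was not tested.

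The members were expressed at moderate levels. Their median log2 level was 5.61 in KO MEFs, 5.38 in WT MEFs and 5.56 in 10T1/2 cells, against 6.59, 6.53 and 6.77 for all kept genes. Of the 139 members, 97 were above the array median on all 3 KO arrays and 97 on all 3 WT arrays, while 9 were below it on all KO arrays and 18 on all WT arrays. In the 10T1/2 cells 109 were above it on all 4 arrays and 7 below it. The highest mean over the 10 arrays belonged to Zfp622, an assembly factor of the large ribosomal subunit, at 11.46. It was followed by Zfp703, a corepressor of the NET family, at 9.07, Zfp637 at 8.86, Zfp771 at 8.77 and Zfp574 at 8.64. The lowest means were 3.35 for Zfp974, 3.42 for Zfp870, 3.44 for Zfp599 and Zfp882, and 3.48 for Zfp759. These are levels of different probe sets, which do not measure different genes on 1 scale, so the order is a rough one.

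Many of the zinc finger genes were lower after 90 min of serum and few were higher. The median level of the 139 members was 5.85, 5.81 and 4.97 at 0, 30 and 90 min in KO MEFs and 5.50, 5.56 and 5.08 in WT MEFs, so the drop came between 30 and 90 min in each line. For all kept genes the medians were 6.60, 6.69 and 6.45 in KO MEFs and 6.57, 6.71 and 6.31 in WT MEFs. They thus fell in this interval as well. In an additive limma model of genotype and serum time, with p-values adjusted by the Benjamini-Hochberg method over all 11933 genes tested and a threshold of 0.05, 134 members were tested, while Zfp759, Zfp775, Zfp882, Zfp974 and Zfp979 were too low in MEFs. At 90 min against 0 min, 31 of them (23.1%) were lower, where 8.96% of all genes tested were lower, and 5 (3.73%) were higher, where 4.56% of all genes were. The coefficient was negative for 114 of the 134, with a median log2 difference of -0.44, against -0.11 over all genes. Of the Zfp genes with numbers below this range, chosen in the same way, 49 of 125 (39.2%) were lower and 4 higher, with a median of -0.56, so the fall was shared by the other numbered Zfp genes. In bulk RNA, fewer cells that express a gene and less RNA per cell cannot be told apart. A control for RNA integrity, the 3' minus 5' log2 signal of Gapdh, was -0.26 and -0.16 on the KO and WT arrays of 90 min and -0.20 and -0.26 on those of 0 min, and that of beta-actin was -0.07 and 0.15 against 0.16 and 0.12.

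**Figure D1:**
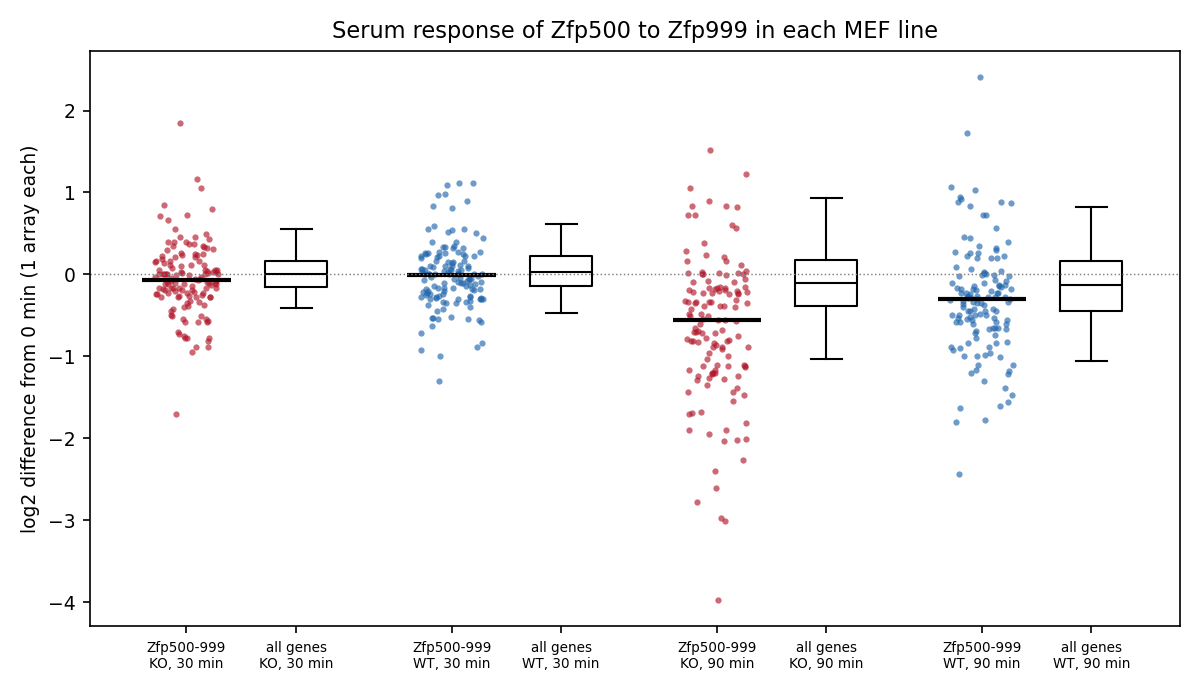
Log2 difference from 0 min of the 134 tested members (points, with the median as a thick line) and of all 11933 genes tested (boxes from the lower to the upper quartile, whiskers from the 5th to the 95th percentile), by serum time and genotype, each from 1 pair of arrays. At 90 min the members' median is -0.56 in KO MEFs and -0.31 in WT MEFs, below the medians of all genes at -0.10 and -0.13.

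The largest fall past the threshold was that of Zfp647. It had 5.19 at 90 min and 8.16 at 0 min in KO MEFs, and 6.05 at 90 min and 7.83 at 0 min in WT MEFs. Its coefficient fell by 2.38 on the log2 scale (SE 0.32, 5.19-fold, limma adjusted p = 0.0106), and the 90 min arrays lay below the 0 min arrays in both lines. Zfp760 had 4.68 at 90 min and 7.69 at 0 min in KO MEFs, and 5.49 and 7.05 in WT MEFs, a fall by 2.29 on average (SE 0.41, 4.87-fold, adjusted p = 0.0215).

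Zfp637 stood out by its level, since it was among the most highly expressed members and still fell. It had 7.63 at 90 min and 9.64 at 0 min in KO MEFs, and 5.80 and 8.23 in WT MEFs. The coefficient fell by 2.22 (SE 0.18, 4.66-fold, adjusted p = 0.00495), with the 30 min values of 9.52 and 8.13 close to those of 0 min. Zfp551 was lower already at 30 min. It had 5.95, 4.25 and 3.55 at 0, 30 and 90 min in KO MEFs, and 5.50, 4.20 and 3.70 in WT MEFs. Since its 90 min values lie below the array medians, it was at least 3.52-fold lower at 90 min than at 0 min, with a coefficient of -2.10 (SE 0.19, adjusted p = 0.00502).

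The other 4 of the 8 largest falls past the threshold were those of Zfp763, Zfp790, Zfp688 and Zfp954. Zfp799 had a coefficient of -2.43 that did not pass (adjusted p = 0.0586), and its values are given with the responses by genotype. Zfp763 had 3.20 at 90 min and 5.97 at 0 min in KO MEFs, and 3.18 and 4.4 in WT MEFs, at least 2.42-fold lower (coefficient -2.0, SE 0.40, adjusted p = 0.0272). Zfp790 had 4.18 at 90 min and 6.44 at 0 min in KO MEFs, and 5.08 and 6.69 in WT MEFs, a 3.82-fold fall (adjusted p = 0.00919). Zfp688 fell 3.4-fold (adjusted p = 0.00788) and Zfp954 2.84-fold (adjusted p = 0.0125), and for both the 90 min arrays lay below the 0 min arrays in each line. For 29 of the 31 members that fell, the 0 and 90 min values of the 2 lines together did not overlap, as for 81.3% of all genes that fell. For 9 of the 31, the 90 min values were below the array medians in both lines, so the size of their fall is only a lower bound. Other probe sets of called members, where above that median level, had the same direction in 17 of 18 cases, the exception being Zfp507. This counts the sign alone, and that of Zfp704 differed by only -0.015. With the mean of all probe sets, 9 of the 36 calls at 90 min against 0 min were lost. Lower in that setting were 26 of 131 members (19.8%), where 7.98% of all genes were.

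The members that rose were Zfp948, Zfp597, Zfp697, Zfp655 and Zfp644. Zfp948 had 7.49 at 90 min and 6.59 at 0 min in KO MEFs, and 7.17 and 4.76 in WT MEFs (coefficient 1.66, SE 0.39, adjusted p = 0.0424). Zfp597, whose human counterpart is imprinted, had 7.05 at 90 min and 5.82 at 0 min in KO MEFs, and 7.37 and 6.34 in WT MEFs (coefficient 1.13, SE 0.16, adjusted p = 0.0113). Zfp697 had 6.61 at 90 min and 5.56 at 0 min in KO MEFs, and 6.62 and 5.75 in WT MEFs (coefficient 0.96, SE 0.15, adjusted p = 0.0149). The increases of Zfp597 and Zfp697 were thus of similar size in both lines, while that of Zfp948 was 0.90 in KO MEFs and 2.41 in WT MEFs. Further probe sets above the median level differed by 0.445 for Zfp948, 1.235 for Zfp597 and 0.405 for Zfp697.

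Zfp655, which in human cells encodes a KRAB protein that binds the signalling protein VAV1, had 8.95 at 90 min and 8.11 at 0 min in KO MEFs, and 9.13 and 8.21 in WT MEFs (coefficient 0.88, SE 0.15, adjusted p = 0.0177). Zfp644, a partner of the histone methyltransferases G9a and GLP, had 9.37 at 90 min and 8.65 at 0 min in KO MEFs, and 8.85 and 7.97 in WT MEFs (coefficient 0.80, SE 0.18, adjusted p = 0.0361). All 5 were above their 0 min value in both lines. When the 30 min arrays were left out, the model had 1 residual degree of freedom and none of the 134 members passed for 90 min against 0 min. Of all genes, 0.0587% were higher and 0.0335% lower in that fit.

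**Figure D2:**
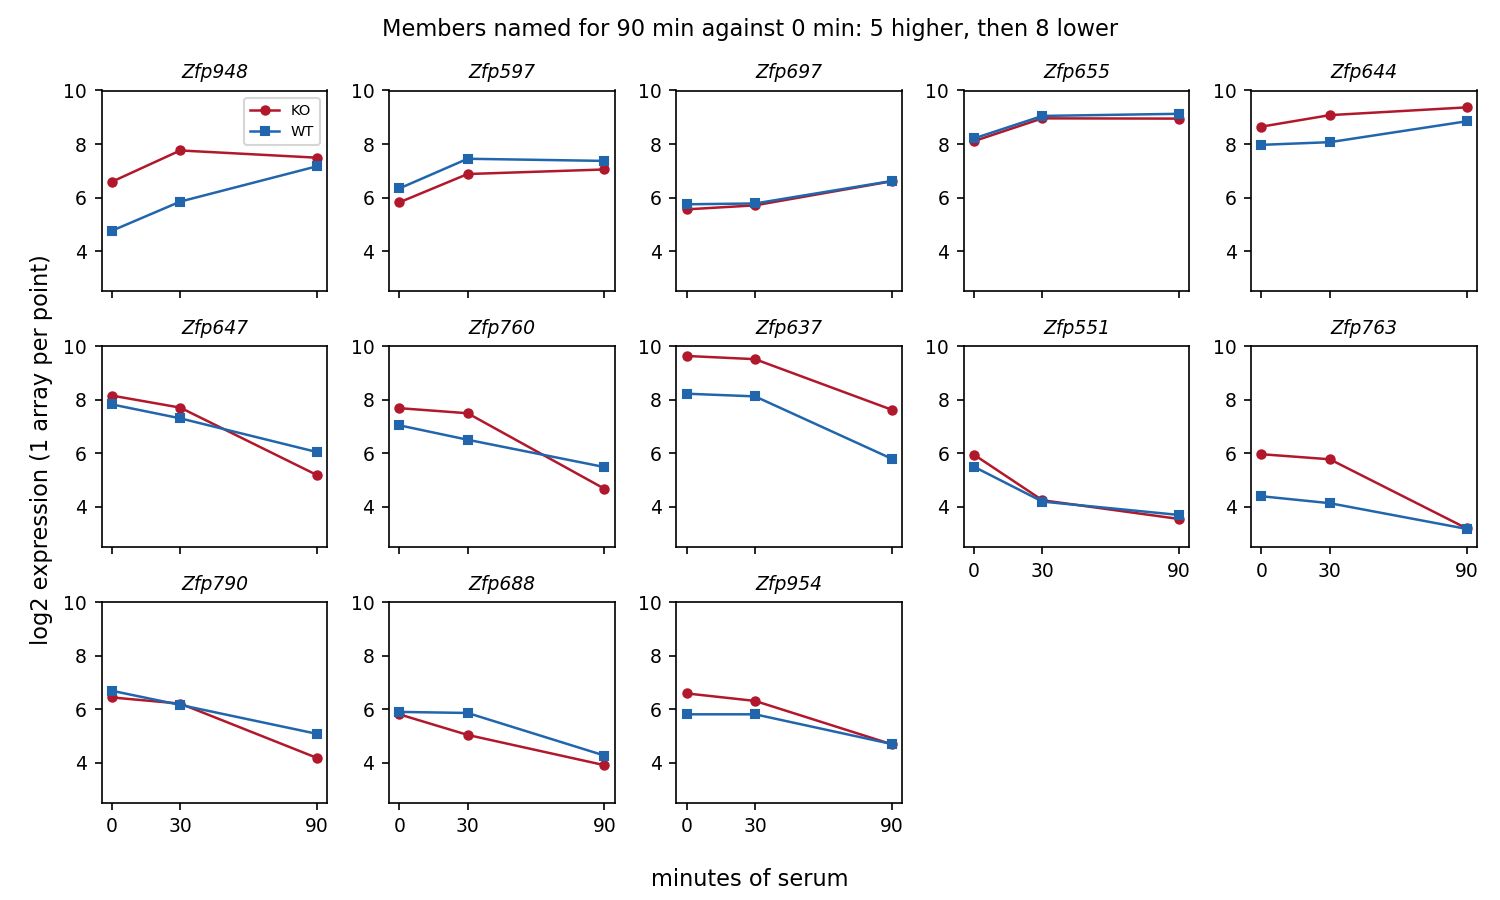
Log2 expression at 0, 30 and 90 min of serum in KO (circles) and WT (squares) MEFs for the 13 members named for 90 min against 0 min, 1 array per point. Zfp597 and Zfp655 reach their higher level by 30 min, whereas most of the members that fall, such as Zfp637 with 9.52 at 30 min and 7.63 at 90 min in KO MEFs, lie lowest at 90 min.

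The start regions of 5 of these genes are shown because serum acts on SRF, which binds the CArG box, and because the genes moved in opposite directions. They were picked by hand, and others that rose or fell, such as Zfp948 and Zfp647, are not shown. The motifs marked below thus do not compare genes that rose with genes that fell. The sequences are RefSeq promoter windows of build GRCm38.p6, all of one length around a gene's annotated start, 5′ to 3′ on the gene's strand, with motif matches in capitals.
Zfp644, chr5:106696781-106697080, minus strand, capitals mark a CArG box: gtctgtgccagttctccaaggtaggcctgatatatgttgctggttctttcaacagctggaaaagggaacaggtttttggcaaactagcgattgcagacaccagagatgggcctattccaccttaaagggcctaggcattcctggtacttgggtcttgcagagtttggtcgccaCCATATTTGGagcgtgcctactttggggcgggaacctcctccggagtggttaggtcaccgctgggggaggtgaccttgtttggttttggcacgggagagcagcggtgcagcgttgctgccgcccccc
Zfp597, chr16:3872325-3872624, minus strand, capitals mark 2 CCAAT boxes and an ETS motif: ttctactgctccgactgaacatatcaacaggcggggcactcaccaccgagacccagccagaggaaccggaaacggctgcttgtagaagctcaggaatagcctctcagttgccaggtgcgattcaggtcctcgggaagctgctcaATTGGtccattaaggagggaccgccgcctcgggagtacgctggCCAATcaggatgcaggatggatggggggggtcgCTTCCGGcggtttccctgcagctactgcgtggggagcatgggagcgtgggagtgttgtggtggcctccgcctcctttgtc
Zfp655, chr5:145231492-145231791, plus strand, capitals mark an ETS motif: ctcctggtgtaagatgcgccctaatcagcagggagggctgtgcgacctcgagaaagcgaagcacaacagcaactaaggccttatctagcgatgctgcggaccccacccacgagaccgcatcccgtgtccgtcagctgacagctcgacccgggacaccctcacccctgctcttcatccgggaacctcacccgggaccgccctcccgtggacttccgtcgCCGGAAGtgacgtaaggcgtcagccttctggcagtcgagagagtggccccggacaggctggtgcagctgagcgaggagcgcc
Zfp637, chr6:117841025-117841324, plus strand, no match: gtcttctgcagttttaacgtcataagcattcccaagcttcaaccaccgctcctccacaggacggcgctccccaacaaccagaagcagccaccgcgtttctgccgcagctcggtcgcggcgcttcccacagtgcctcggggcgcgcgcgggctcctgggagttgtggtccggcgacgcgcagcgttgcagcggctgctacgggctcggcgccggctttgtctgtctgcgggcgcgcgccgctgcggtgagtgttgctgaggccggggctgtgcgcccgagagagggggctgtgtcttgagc
Zfp551, chr7:12422442-12422741, minus strand, no match: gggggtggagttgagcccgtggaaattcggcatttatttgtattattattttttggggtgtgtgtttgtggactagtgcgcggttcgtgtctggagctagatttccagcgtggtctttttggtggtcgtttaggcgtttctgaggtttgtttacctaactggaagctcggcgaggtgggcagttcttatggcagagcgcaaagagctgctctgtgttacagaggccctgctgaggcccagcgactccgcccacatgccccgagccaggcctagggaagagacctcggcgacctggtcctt

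RefSeq gives Zfp644 another start, whose window at chr5:106696476-106696775 holds a CCAAT box and an NRF1 site and no CArG box, and Zfp637 another with no match. Such windows were matched for 117 of the 139 members, 143 windows in all. The motifs were searched on both strands: the CArG box by its usual consensus, the ETS motif as CCGGAAG, the cyclic AMP response element as TGACGTCA, the AP-1 site as TGANTCA, the EGR site as GCGGGGGCG, the E-box as CACGTG, the TATA box as TATAAA, the NRF1 site by its palindromic consensus and the CCAAT box as CCAAT. A CArG box was in 2.1% of member windows and 1.63% of all 32851 windows. Its 3 windows were those of Zfp644, Zfp619 and Zfp871, and the Zfp644 match began at position -77 from the start. Of the 28 windows of 24 members lower at 90 min, 0 held a CArG box, which says only that the letters are not in these windows. A CCAAT box was in 35.7% of these 28 windows and an ETS motif in 10.7%. In the 6 windows of the 5 members higher at 90 min, both shares were 33.3%. Member windows held a TATA box in 4.9% and all windows in 13.6%. They held an ETS motif in 14% against 8.86%, an NRF1 site in 10.5% against 4.6% and a CCAAT box in 50.3% against 37.4%. The median number of CpG dinucleotides was 16 per member window and 7 per window overall. E-boxes (7.69% against 7.15%), EGR sites (3.5% against 2.91%), AP-1 sites (5.59% against 7.81%) and cyclic AMP elements (2.8% against 1.79%) were at similar shares.

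At 30 min no zinc finger gene in this range was called. None of the 134 members passed at 30 min against 0 min by limma, where 0.251% of all genes did (0.235% higher and 0.0168% lower), while 20 members (14.9%) had an unadjusted p under 0.05, where 7.99% of all genes had. Falls of at least 0.5 log2 units were seen for 19 members (14.2%) in KO MEFs, where 2.83% of all genes fell as much, and for 14 (10.4%) in WT MEFs, where 4.16% did. Increases of that size were seen for 9 members (6.72%) in KO MEFs, where 5.95% of all genes rose as much, and for 14 in WT MEFs, where 8.15% did. With a trend of the variance on intensity, Zfp551 was the 1 member called, lower with an adjusted p of 0.0443. Its value fell by 1.70 in KO MEFs and by 1.30 in WT MEFs. The largest positive differences were 1.42 for Zfp568 (adjusted p = 0.306), 1.13 for Zfp948, 1.09 for Zfp597 (adjusted p = 0.088) and 0.85 for Zfp655 (adjusted p = 0.146). The largest negative ones after Zfp551 at -1.5 (adjusted p = 0.07) were -0.75 for Zfp661, -0.73 for Zfp658 and -0.67 for Zfp599. Zfp568 encodes a KRAB protein that silences a placental promoter of Igf2 in mouse embryos. It had 6.93, 8.78 and 7.50 at 0, 30 and 90 min in KO MEFs, and 6.83, 7.81 and 5.91 in WT MEFs, so its highest value was at 30 min in both lines.

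Between 30 and 90 min, 24 members (17.9%) fell, where 8.1% of all genes did, and 1 rose, where 1.82% of all genes did and 9.91% were called in either direction. This comparison shares its 90 min arrays with the one above, and 21 members were lower in both. Zfp637 fell by 2.11 (adjusted p = 0.0101), Zfp760 by 1.92 (adjusted p = 0.0409), Zfp647 by 1.89 (adjusted p = 0.0251) and Zfp763 by 1.77 (adjusted p = 0.0451). Zfp532, part of a chromatin complex with ZMYND8 in human cells, had 5.91 at 90 min and 7.95 at 30 min in KO MEFs, and 7.29 and 8.72 in WT MEFs (coefficient -1.74, adjusted p = 0.016). Zfp568 fell by 1.59 (adjusted p = 0.0392) after its 30 min peak. Zfp790 had a coefficient of -1.56 (adjusted p = 0.0213) and Zfp954 of -1.37 (adjusted p = 0.0223). The member that rose was Zfp697, by 0.87 (adjusted p = 0.0261), with nearly its whole increase in this interval. The next largest positive differences did not pass: 0.84 for Zfp703, 0.57 for Zfp719 and 0.54 for Zfp541. With quantile normalization 12 members (8.96%) fell, where 4.78% of all genes did, and Zfp760 (adjusted p = 0.0662), Zfp763 (adjusted p = 0.0506) and Zfp568 (adjusted p = 0.0502) lost their calls. The calls again need all 3 times. Without the 0 min arrays none of the members passed, and 0% of all genes did.

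The fall at 90 min was larger in KO than in WT MEFs for most members. Of the 134, 42 (31.3%) fell by at least 1 log2 unit in KO MEFs, where 5.52% of all genes did, and 18 (13.4%) in WT MEFs, where 5.97% of all genes did. Increases of at least 1 were seen for 3 members in KO MEFs (4.55% of all genes) and 4 in WT MEFs (3.74% of all genes). The response at 90 min was lower in KO than in WT MEFs for 93 of 134 members, with a median difference of -0.28, where 44.6% of all genes were lower and the median was 0.05. For 21 members it was lower by at least 1 (3.1% of all genes) and for 2 higher by at least 1 (3.34% of all genes). Many of the 21 had a WT value at 90 min below the array median of 3.92. These were Zfp799, Zfp810, Zfp763, Zfp503, Zfp995, Zfp820, Zfp563, Zfp950 and Zfp606, for which a larger WT fall could not be seen. At 30 min it was lower for 66 of 134, with a median of 0.005. With 1 array per condition these differences have no test.

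The largest such difference was that of Zfp799. It had 8.29, 7.48 and 4.32 at 0, 30 and 90 min in KO MEFs and 4.26, 4.58 and 3.38 in WT MEFs, so its 90 min response was -3.97 in KO MEFs and -0.88 in WT MEFs. The WT value at 90 min was below the array median, so the size of the WT fall is open. Zfp810 had 6.48, 6.36 and 3.87 in KO MEFs and 3.44, 3.14 and 3.47 in WT MEFs, a response of -2.61 in KO MEFs and 0.03 in WT MEFs. Every WT value of Zfp810 was below the array median, so no fall could be seen there. Zfp763 responded by -2.77 in KO MEFs and -1.22 in WT MEFs, with 3.20 and 3.18 at 90 min, both below the array medians. Zfp703 was high in both lines, with 9.39, 9.12 and 9.40 in KO MEFs and 8.11, 8.44 and 9.83 in WT MEFs, a response of 0.01 in KO MEFs and 1.72 in WT MEFs.

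At 30 min the 4 largest differences between the responses were -1.13 for Zfp799 (-0.81 in KO MEFs and 0.32 in WT MEFs), -1.05 for Zfp941, and -1.0 for both Zfp787 and Zfp949. Zfp787 responded by 0.12 in KO MEFs and 1.12 in WT MEFs. Zfp941 responded by -0.08 in KO MEFs, where it was below the array medians, and 0.97 in WT MEFs.

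**Figure D3:**
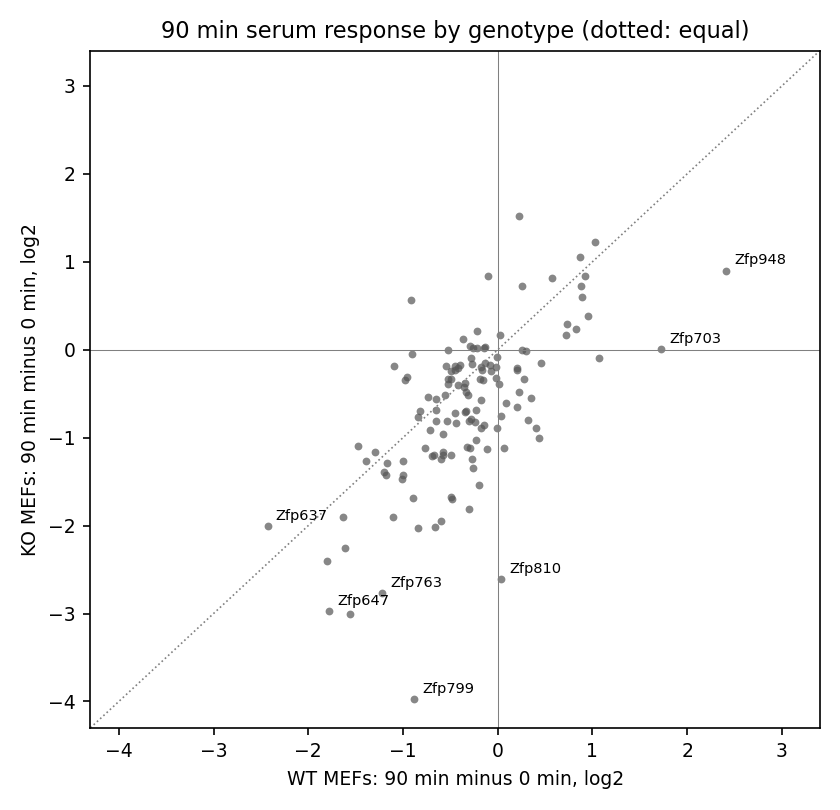
Log2 difference between 90 and 0 min of serum in KO MEFs (vertical axis) against WT MEFs (horizontal axis) for the 134 tested members, 1 pair of arrays per axis, with equal responses on the dotted line. Most points lie below the dotted line, 93 of 134, with Zfp799 lowest at -3.97 in KO MEFs and -0.88 in WT MEFs.

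Between the genotypes many zinc finger genes differed, as did many other genes. For KO against WT, 48 of 134 members (35.8%) passed, where 42.1% of all genes did. Higher in KO MEFs were 32 (23.9%, against 21.2% of all genes) and lower were 16 (11.9%, against 20.8% of all genes), with a median difference of 0.16 over the members and -0.02 over all genes. Of the lower-numbered Zfp genes, 38 of 125 were higher and 12 lower. Because a gene was tested when its highest value passed the filter, a member seen in 1 genotype only had to differ. The WT values of 9 of the 32 and the KO values of 1 of the 16 were below the array medians throughout. The KO and WT values, taken over all serum times, did not overlap for 16 of the 32 higher and 9 of the 16 lower members. Among all genes called, they did not overlap for 80.5% of those higher and 79.9% of those lower. The members' calls were thus less often free of overlap than those of other genes. By serum time, 80 members were higher in KO than in WT at 0 min, 83 at 30 min and 58 at 90 min, with medians of 0.18, 0.20 and -0.06. These values share the arrays of the serum comparison. Only 10 of the 48 calls held in all 3 fits that leave out 1 serum time, and the share over all called genes is not given here. Higher among the 10 were Zfp618, Zfp521, Zfp638, Zfp637, Zfp593 and Zfp524, and lower were Zfp941, Zfp664, Zfp513 and Zfp740.

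Zfp618 had the largest difference. Its human counterpart is a partner of UHRF2, a reader of hydroxymethylated DNA. It had 7.94, 8.16 and 7.59 at 0, 30 and 90 min in KO MEFs, against 3.62, 3.36 and 3.47 in WT MEFs, where every value was below the array median. It was at least 15.9-fold higher in KO MEFs (coefficient 4.41, SE 0.17, adjusted p = 1.56e-05). Its other probe sets above the median differed by 3.43, 2.48 and 0.59 in the same direction.

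Zfp521 and Zfp638, genes of fat cell commitment, were higher in KO MEFs. Zfp521, which holds mesenchymal progenitors back from the fat cell fate, had 8.37, 8.28 and 7.16 in KO MEFs, against 6.33, 6.59 and 5.64 in WT MEFs (3.36-fold, coefficient 1.75, SE 0.15, adjusted p = 0.000348). Zfp638, a cofactor of C/EBP proteins early in fat cell differentiation, had 8.89, 8.72 and 8.06 in KO MEFs, against 7.13, 7.17 and 6.69 in WT MEFs (2.95-fold, coefficient 1.56, SE 0.14, adjusted p = 0.000389). For neither did the groups overlap. A further probe set above the median level differed by 0.52 for Zfp521 and by 1.40 for Zfp638, in the same direction. Of 9 genes listed as fat cell and mesenchymal regulators, 7 were tested, 3 were higher in KO MEFs and 0 lower, where 21.2% and 20.8% of all genes were. The share called, 3 of 7, was thus near the 42.1% of all genes. The third was Zfp503, a NET family corepressor like Zfp703, with 5.02, 4.25 and 3.48 in KO MEFs, against 3.46, 3.06 and 3.26 in WT MEFs (coefficient 0.99, adjusted p = 0.0238). All WT values of Zfp503 and its KO value at 90 min were below the array medians, so it was at least 1.27-fold higher. The others were Zfp703 (0.51, adjusted p = 0.23), Zfp746, a repressor of the metabolic coactivator gene Ppargc1a (0.41, adjusted p = 0.095), Zfp704 (0.23, adjusted p = 0.18) and Zfp516, an activator of brown fat genes (0.07, adjusted p = 0.75). Zfp521 and Zfp704 were also the 2 of the 7 that fell at 90 min against 0 min, by 0.95 (adjusted p = 0.0245) and 0.67 (adjusted p = 0.0366). Another probe set of Zfp704 differed by only -0.015.

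The remaining members with the largest positive differences were Zfp799, Zfp810, Zfp637, Zfp948 and Zfp593. Zfp637 was 2.92-fold higher in KO MEFs (coefficient 1.54, SE 0.14, adjusted p = 0.000517) and higher at each time, though its 3 KO and 3 WT values overlap because the 90 min values are low in both lines. Zfp593, the counterpart of a yeast export factor of the large ribosomal subunit, had 7.41, 7.46 and 7.70 in KO MEFs, against 6.08, 6.34 and 6.81 in WT MEFs (coefficient 1.11, SE 0.14, adjusted p = 0.00162). Zfp799 (coefficient 2.62, SE 0.53, adjusted p = 0.0096) and Zfp810 (coefficient 2.22, SE 0.53, adjusted p = 0.0182, at least 3.16-fold) had larger SEs than Zfp618, and their differences were smaller at 90 min than at 0 min. Zfp948 had a coefficient of 1.35 (SE 0.32, adjusted p = 0.0169) and differed least at 90 min, with 7.49 in KO MEFs against 7.17 in WT MEFs. A further probe set of Zfp948 differed by 0.34 in the same direction, and that of Zfp593 by 0.83.

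Lower in KO MEFs was first Zfp941, with 3.23, 3.15 and 3.15 in KO MEFs, all below the array medians, against 4.69, 5.66 and 4.68 in WT MEFs. It was at least 2.17-fold lower (coefficient -1.83, SE 0.23, adjusted p = 0.00154). Zfp664 had 8.14, 8.19 and 8.16 in KO MEFs, against 9.36, 9.58 and 9.14 in WT MEFs (coefficient -1.20, adjusted p = 0.00113). Zfp513 had 5.67, 6.22 and 5.91 in KO MEFs, against 6.60, 7.15 and 7.43 in WT MEFs (coefficient -1.13, adjusted p = 0.00284).

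Zfp740 differed by -1.10 (adjusted p = 0.00131) and Zfp719 by -1.08 (adjusted p = 0.00635), without overlap of the lines. Zfp532 (-0.91, adjusted p = 0.00937) and Zfp646 (-0.78, adjusted p = 0.00615) were lower at every time, with overlapping ranges. Zfp932, a KRAB silencer of endogenous retroviruses in mouse embryonic stem cells, had 4.85, 4.84 and 3.82 in KO MEFs, against 5.41, 5.61 and 5.18 in WT MEFs (-0.90, adjusted p = 0.00976). Of 5 listed KRAB silencers of retroelements or imprinted genes, 3 were tested. Zfp568 was higher in KO MEFs (0.89, adjusted p = 0.042), Zfp932 lower, and Zfp809, which silences retroviruses that use a proline tRNA primer, differed by 0.21 (adjusted p = 0.236). Zfp708 and Zfp819 were below the level threshold.

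**Figure D4:**
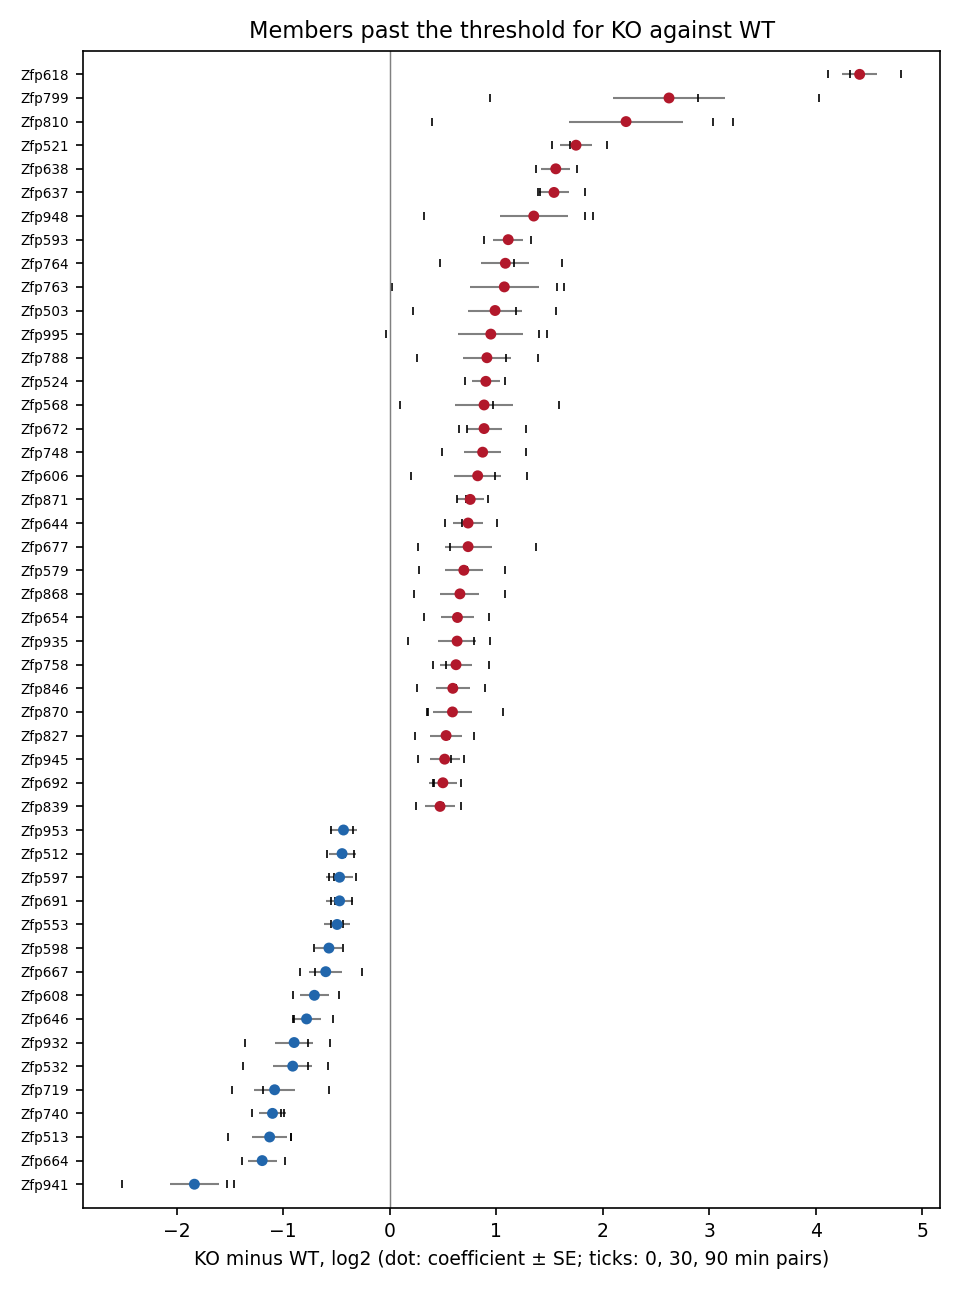
Coefficient of KO against WT (dots, with bars of ± 1 SE, in log2 units) for the 48 members past the threshold, ordered by size, with ticks for the differences of the 3 pairs of arrays at 0, 30 and 90 min. Zfp618 stands alone at 4.41, and the wide spread of ticks for Zfp799 and Zfp810 shows how much their differences varied between serum times.

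Members that work in chromatin complexes moved in both directions. Of 14 listed, 13 had a probe set and 12 were tested. Zfp618, Zfp644 (0.74, adjusted p = 0.00881) and Zfp827, which in human cells brings the NuRD remodelling complex to telomeres (0.53, adjusted p = 0.0317), were higher in KO MEFs. Zfp532, Zfp608 (-0.71, adjusted p = 0.00878) and Zfp512 (-0.45, adjusted p = 0.0322) were lower, so that 6 of 12 passed where 42.1% of all genes did. At 90 min against 0 min Zfp644 rose, while Zfp532, Zfp608 (-1.22, adjusted p = 0.0115), Zfp512 (-1.13, adjusted p = 0.0113) and Zfp507 (-0.81, adjusted p = 0.0225) fell. Another probe set of Zfp507 differed by 0.25 in the opposite direction at 90 min.

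Of the 8 genes listed under ribosomes, RNA and DNA repair, 7 were tested. Zfp637 and Zfp593 were higher and Zfp598 lower in KO MEFs, 3 of 7 where 42.1% of all genes were called. Whether Zfp637 has such a role was not tested. Zfp598, a ubiquitin ligase that marks collided ribosomes, had 6.42, 6.79 and 6.59 in KO MEFs, against 7.13, 7.23 and 7.15 in WT MEFs (-0.57, adjusted p = 0.0141). Zfp622 differed by 0.18 (adjusted p = 0.343).

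Of the corepressor machinery that KRAB proteins use, neither Trim28 nor Setdb1 passed in KO against WT or at 90 min against 0 min. Trim28 had 10.29, 10.19 and 9.90 at 0, 30 and 90 min in KO MEFs, against 10.09, 10.14 and 9.41 in WT MEFs, and Setdb1 had 8.03, 8.05 and 7.53 in KO MEFs, against 8.19, 8.46 and 7.84 in WT MEFs. Of 27 listed symbols of the machinery, among them an older name of the listed gene Tasor, 23 had a probe set and 22 were tested. In KO MEFs 3 were higher, namely Chd3 (1.5), Smarcad1 (0.70) and Mphosph8 (0.63), and Cbx5 was lower (-1.02), 4 of 22 where 42.1% of all genes were called. At 90 min against 0 min 0 rose and 2 fell, namely Atf7ip, a partner of SETDB1 (-1.27), and Smarcad1 (-0.77), where 13.5% of all genes were called.

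Many members lie close together in the genome. Chromosome 7 carried 42 of the 139 and chromosome 17 carried 22. Runs of at least 5 members, each at most 12 places after the one before in the order of annotated genes, numbered 6. This rule was chosen after values were seen. The run on chromosome 17 that holds Zfp871, Zfp799, Zfp870, Zfp952, Zfp763 and Zfp563 had positive KO coefficients for 6 of 6 (4 of them past the threshold, median 0.70), where 47.5% of all genes were positive and 42.1% passed. All 6 were negative at 90 min against 0 min (2 past the threshold, median -1.02), where 61.2% of all genes were negative. The larger run there, from Zfp677 to Zfp945, had positive KO coefficients for 11 of 13 members (5 higher, 0 lower, median 0.52) and negative 90 min coefficients for 12 (3 lower, and Zfp948 higher). In the other 4 runs, from Zfp628 to Zfp580, Zfp553 to Zfp689, Zfp930 to Zfp866 and Zfp712 to Zfp748, the KO coefficient was positive for 5 of 6, 2 of 6, 4 of 5 and 2 of 4 tested members, with medians of 0.28, -0.20, 0.36 and 0.09. The 90 min coefficient was negative for 6, 5, 5 and 4 of them, with medians of -0.48, -0.38, -0.85 and -0.50. The KO and serum comparisons share their arrays. Duplicated genes resemble each other in sequence, so probes can pick up a neighbour, which was not tested. Of the 48 KO calls 6 rest on probe sets whose suffix marks probes shared with other transcripts, and of the 36 calls at 90 min against 0 min 3 do.

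In 10T1/2 cells no member passed for either treatment. In an additive limma model of MAL and knockdown over 12440 genes, 0 of 132 members were called for MAL, where 0.0643% of all genes were (0.0482% higher and 0.0161% lower), and 0 of 132 for knockdown, where 0% of all genes were. At an unadjusted p under 0.05 there were 29 members (22%) for MAL, where 27.6% of all genes were, and 48 (36.4%) for knockdown, where 31.9% of all genes were. With quantile normalization 8 members were higher and 5 lower for MAL, where 9% and 7.34% of all genes were. Under the same setting 17 (12.9%) were higher and 15 (11.4%) lower for knockdown, where 11% and 9.04% of all genes were. With the mean of all probe sets of a gene 2 were higher and 1 lower for MAL (2.12% and 2.88% of all genes), and 3 higher and 0 lower for knockdown (2.04% and 0.851% of all genes). With a variance trend there were 0 for MAL (2.17% higher and 2.22% lower of all genes) and 3 higher for knockdown (3.72% of all genes). The median coefficient was -0.10 for MAL and -0.06 for knockdown, against -0.03 and -0.08 over all genes.

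The 7 members too low to be tested in 10T1/2 cells included Zfp810 and Zfp941. The values with the largest knockdown coefficients came from Zfp704, Zfp608 and Zfp618. Zfp704 had 7.23 with both treatments and 5.73 with knockdown, against 4.38 with MAL and 4.62 in the control (coefficient 1.98, SE 0.44, adjusted p = 0.082). Zfp608 had 6.45 with both and 5.56 with knockdown, against 4.68 with MAL and 4.39 in the control (1.47, SE 0.23, adjusted p = 0.0688). Zfp618 had 7.93 with both and 8.08 with knockdown, against 6.44 with MAL and 6.68 in the control (1.45, SE 0.18, adjusted p = 0.0688).

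For these 3 genes the arrays with knockdown lay above those without it. Zfp871 followed with 1.35 (adjusted p = 0.149), of which most came from the combined array at 8.84, against 7.03 with knockdown, 6.46 with MAL and 6.71 in the control. On the negative side were Zfp931 (-1.30), Zfp758 (-1.02), Zfp948 (-0.99) and Zfp524 (-0.86). Across the 127 members tested in both cell systems, 63 had the same sign for KO in MEFs and knockdown in 10T1/2 cells, and the coefficients correlated with Pearson's r = 0.081 and Spearman's rho = -0.027. The points of this correlation share the arrays of each system.

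For MAL the largest positive coefficients were those of Zfp790 (1.10, adjusted p = 0.0765), Zfp961 (1.06), Zfp568 (0.95) and Zfp617 (0.94). Zfp790 had 6.86 with both treatments and 5.74 with MAL, against 5.50 with knockdown and 4.90 in the control. The largest negative ones were those of Zfp994 (-0.98), Zfp703 (-0.91), Zfp820 (-0.79) and Zfp523 (-0.76). Zfp703 had 8.89 with both and 8.38 with MAL, against 9.64 with knockdown and 9.45 in the control.

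Against the control, the array with both treatments differed by at least 1 for the most members. There, 24 of 132 members (18.2%) were at least 1 above the control, where 17.9% of all genes were, and 13 (9.85%) at least 1 below it, where 11.5% of all genes were. The members thus moved about as often as other genes. With MAL alone it was 2 above and 2 below (4.3% and 4.11% of all genes), and with knockdown alone 7 above and 0 below (6.01% and 1.61% of all genes). The combined array held the highest value of the 4 for 37 members (28.1% of all genes) and the lowest for 57 (42.7% of all genes). The control array held the highest for 50 (33.7% of all genes) and the lowest for 36 (28.8% of all genes).

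**Figure D5:**
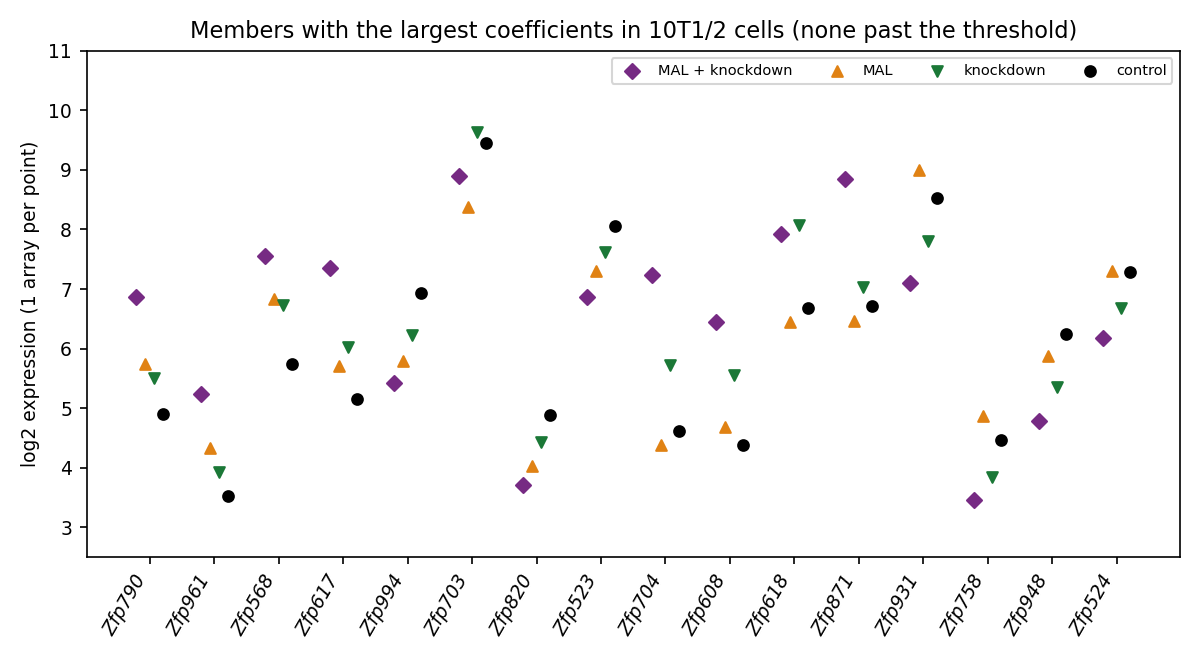
Log2 expression on the 4 arrays of 10T1/2 cells (both treatments, MAL, knockdown and control, 1 array per point) for the 16 members with the largest coefficients for MAL (first 8) and knockdown (last 8). Zfp618 and Zfp608 lie higher on both arrays with knockdown, and Zfp704 reaches 7.23 with both treatments, against 4.62 in the control.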

How the data were processed

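Biotinylated cRNA from total RNA was hybridised to Affymetrix mouse arrays, per the labels' protocols, with 10 conditions on 10 arrays. The log2 values, 1 per probe set and array, were used as deposited by the authors. RMA and MAS5 are named per the submitters' processing notes, without roles, and the sources used here do not say whether MEF and 10T1/2 arrays were normalized jointly. Of 45101 probe sets, 34945 carried 1 gene symbol, 932 several (left out) and 9160 none. Symbols were updated through Entrez identifiers to RefSeq genes of GRCm38.p6. Each gene was represented by its probe set with the highest mean, and tested in a fit when any of that fit's arrays had it above their joint median (3.90 in MEFs, 3.67 in 10T1/2 cells).

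Additive models were fitted with limma 3.58.1 (lmFit, eBayes) in R 4.3.3 to all genes: genotype and serum time in MEFs (2 residual and 4.18 prior degrees of freedom), MAL and knockdown in 10T1/2 cells (1 and 3.83). The residual holds noise and any interaction. Tests were two-sided, with Benjamini-Hochberg adjustment over the genes of a fit. The fits were tested on simulated data. No detection call was used. A level below its array's median was taken as open, and a fold resting on it was computed with that median in place of the dimmer value and written as "at least". Alternatives were quantile normalization, no filter, the mean of all probe sets, a variance trend, leaving out 1 serum time, and no term for serum time. Named members were the 8 largest called coefficients in each direction that kept 1 sign over the array pairs. With fewer than 4 such members, the 4 largest coefficients stand as values, and genes of the role lists were added. The members and lists were chosen with earlier results of these data known. Protein features of the members were not analysed here.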

Additional observations from a re-analysis of the deposited data

Results flagged for a closer look

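For 8 members named for KO against WT, both pairs of arrays with and without knockdown in 10T1/2 cells went the opposite way to all 3 pairs of KO and WT MEF arrays, a difference that was not tested. The knockdown coefficient was -0.345 for Zfp638 (KO coefficient 1.56), -0.305 for Zfp637 (1.54), -0.985 for Zfp948 (1.35) and -0.27 for Zfp593 (1.11). It was 0.455 for Zfp664 (-1.20), 0.72 for Zfp719 (-1.08), 0.76 for Zfp532 (-0.91) and 0.25 for Zfp646 (-0.78). None of these knockdown coefficients passed the threshold, and 1 pair of Zfp664 differed little, with 7.95 with both treatments and 7.92 with MAL. Of the others named for KO against WT, Zfp618, Zfp521, Zfp799, Zfp513 and Zfp932 went the same way in both pairs. Zfp740 was mixed, and Zfp810 and Zfp941 were not tested in 10T1/2 cells. Over the 127 members tested in both systems, 63 coefficients had the same sign.

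The serum response had opposite signs in KO and WT MEFs, with a difference of at least 1, for 3 members at 30 min and 7 at 90 min. These came from single arrays and were not tested, and the share over all genes is not given here. KO minus WT, the difference was -1.13 for Zfp799, -1.05 for Zfp941 and -1.0 for Zfp949 at 30 min. At 90 min it was -2.64 for Zfp810, -1.44 for Zfp930, -1.29 for Zfp658, -1.19 for Zfp994, -1.16 for Zfp787 and -1.12 for Zfp939. Zfp568 went the other way at 90 min, with a difference of 1.49 (0.57 in KO MEFs and -0.92 in WT MEFs). Some of these signs rest on a very small response in 1 line. The response of Zfp810 in WT MEFs was 0.03, at levels below the array medians. That of Zfp941 in KO MEFs at 30 min was -0.08, also below the array medians. At 90 min Zfp787 responded by -0.09 in KO MEFs and Zfp994 by 0.07 in WT MEFs. Groups had fewer than 4 arrays, so no array was tested as an outlier.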

How the results depend on the processing

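No coefficient of a named member reversed: over their alternatives 284 values kept their direction and side of the threshold, 50 were no longer past it and 23 came past it. The models compare arrays within a serum time and within a line, and the labels carry no replicate numbers for any other block. The KO counts of 32 higher and 16 lower became 10 and 9 when 0 min was left out (7.46% and 6.72%, against 11.2% and 10.3% of all genes). They became 8 and 5 when 30 min was left out (5.97% and 3.73%, against 10.5% and 8.79% of all genes). With no term for serum time, which moves the serum differences into the residual, they were 6 and 6. These were 4.48% and 4.48% of the members, against 12.1% and 11.8% of all genes. The other KO settings were within 1.5 times. For 30 min against 0 min, the variance trend gave 1 lower. The counts for 90 min against 0 min were 0 and 0 when 30 min was left out, where 0.0587% and 0.0335% of all genes passed. Those for 90 min against 30 min were 0 and 0 when 0 min was left out, where 0% of all genes passed. Both fits had 1 residual degree of freedom. With quantile normalization, 12 members were lower at 90 min against 30 min, and Zfp760, Zfp763 and Zfp568 lost their calls. In 10T1/2 cells, quantile normalization gave 8 higher and 5 lower for MAL and 17 and 15 for knockdown, at 14.97 prior degrees of freedom. The mean of all probe sets gave 2 and 1 for MAL and 3 higher for knockdown, and the variance trend 3 higher for knockdown. Why these counts moved was not tested beyond the changed degrees of freedom. Quantile normalization moved the median of all genes by at most 0.0671. Levels near or below the array medians limit the folds of weakly expressed members.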

Other observations

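Of members chosen after their values were seen, 2 differed by more between MEFs and 10T1/2 cells than within either, a comparison of levels with no test, since it is unknown whether both were normalized together. Zfp503 had 9.66 with both treatments, 9.47 with MAL, 9.89 with knockdown and 9.55 in control 10T1/2 cells, against at most 5.02 on any MEF array. Zfp697, which rose with serum in MEFs, averaged 3.55 in 10T1/2 cells, where 2 of the 4 arrays had it below their median, against 6.05 in WT MEFs.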
